A study of Mus musculus with 8 samples.

Results

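Mouse zinc finger genes whose symbol is Zfp and a number of 3 digits starting with 7, 8 or 9 were read from the deposited gene table, together with Gm13157, which GENCODE M21 names Zfp984. They filled 73 of 15728 rows under 72 symbols. Zfp783 stood on 2 rows with identical values and was counted once in sums. Lung RNA was profiled with CAGE (cap analysis of gene expression), in which capped 5′ ends are captured and transcripts counted at their start sites, so a level does not grow with transcript length. Libraries of wild type mice (n = 4) were compared with libraries of triply n/i/eNOSs-/- mice (n = 4), which lack all 3 nitric oxide synthases (endothelial, inducible and neuronal). Both genotypes are labelled with a C57BL/6J strain background, lung as tissue, 4 weeks of age and no exposure. The labels give no sex, litter, collection time or origin of the knockout alleles. They number the libraries but do not say that each is a separate animal, so p-values measure the spread between libraries. Values are counts per 1000000 reads (CPM), given as mean ± SD over the 4 libraries of a genotype. Log2 fold changes are knockout minus wild type on log2(CPM + 0.5), which understates the change of low genes, and a gene was called at a limma adjusted p under 0.05.

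Zinc finger proteins of this class bind DNA through tandem fingers held by cysteines and histidines, and many of the mouse ones carry a KRAB domain that recruits the corepressor TRIM28 (KAP1) and the histone methyltransferase SETDB1. This machinery is known for silencing endogenous retroviruses. KRAB zinc finger genes lie in clusters that grew by tandem duplication, so neighbours are often close copies. The number in a symbol is a catalogue number, and the set therefore also holds genes with other roles, such as the corepressor Zfp703 and the chromosome alignment factor listed as Zfp828 (now Champ1).

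Of the 73 rows, 69 had a mean over the 8 libraries of at least 1 CPM and were tested, 10 were called higher in the knockout and 7 lower. That is 24.6% of the tested members, where 30.9% of all 14036 genes tested were called (16.7% higher and 14.2% lower). The differences were small for most members: the median absolute log2 fold change was 0.17, against 0.19 over all genes. A difference past 1 log2 unit was called for 4 members (5.8%), against 2.51% of all genes. Gm13157, Zfp942 and Zfp943 made up the low end of that range and Zfp960 the high end. Gm13157 is counted in these shares by name and not by its listed symbol. The 9 other genes that GENCODE alone names in this number range are not counted. Among 213 other numbered Zfp genes tested, 39 were called higher and 19 lower (27.2%), 4 of them past 1 log2 unit. On the reads recovered from the CPM values, edgeR called 10 members higher and 10 lower, where it called 32.4% of all genes (16% higher and 16.4% lower). DESeq2 called 7 higher and 10 lower, where it called 31.7% of all genes (15.6% higher and 16.1% lower).

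**Figure D1:**
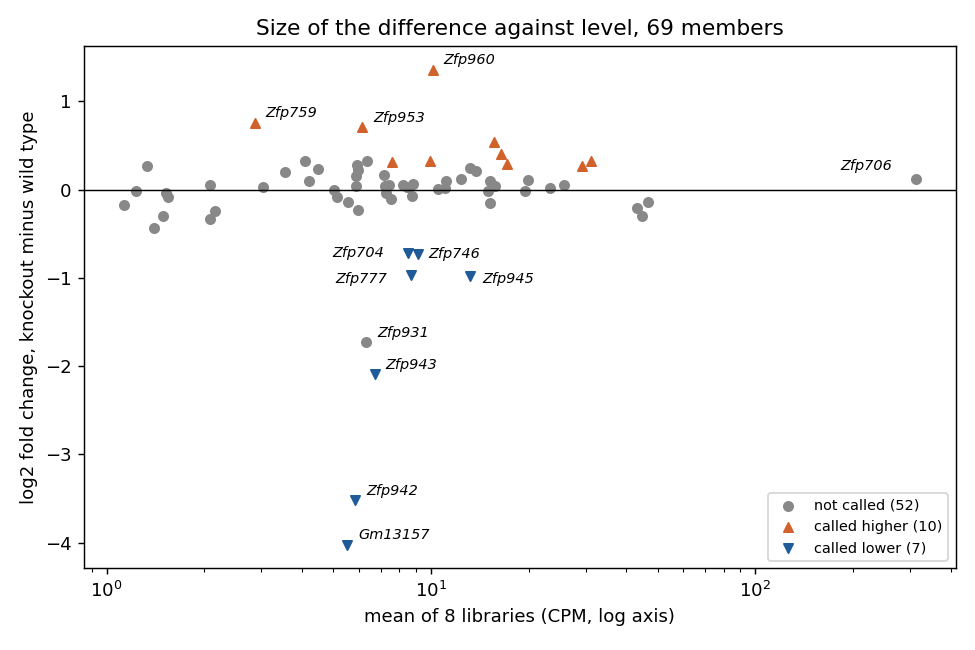
Log2 fold change (knockout minus wild type) against the mean level over 8 libraries (CPM, log axis) for the 69 tested members, each point 1 gene, with called genes as triangles. Most points lie near 0, and Gm13157, Zfp942 and Zfp943 lie farthest below, between -4.02 and -2.09.

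Promoter sequences are shown for the members with the largest falls and for close relatives or neighbours that did not fall, because CAGE reads arise at these starts. They come from RefSeq (GRCm38.p6), which holds a start for 63 of the 72 symbols, and the reads were placed on mm9, so the coordinates are those of the reference only. Zfp942 and Zfp943 are transcribed away from each other, from starts 95 bases apart. Among members with a RefSeq start, no other pair of members had divergent starts this close. The 94 bases between their starts are given on the strand of Zfp943, beside the matching stretch at the start of Zfp758, whose partner across its own start is Zfp944 (not analysed here). The 2 stretches have 0 differences. The stretch of Zfp758 ends 6 bases past its annotated start. Capitals mark CCGCCC, the reverse complement of the GC box GGGCGG, and the E-box core CACGTG.
Zfp942 and Zfp943, chr17:21962465-21962558, + strand: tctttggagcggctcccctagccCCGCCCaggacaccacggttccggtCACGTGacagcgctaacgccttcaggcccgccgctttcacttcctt
Zfp758, chr17:22361376-22361469, + strand: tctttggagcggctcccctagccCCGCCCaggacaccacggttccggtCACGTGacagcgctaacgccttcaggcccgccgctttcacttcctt

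Next are the 200 bases before the annotated start of Gm13157, of its neighbour Zfp933, which changed in the other direction, and of Zfp945, Zfp777 and Zfp746, which fell. The 6 motifs searched, on both strands, were the CCAAT box, the GC box GGGCGG, the TATA box core TATAAA, the E-box core CACGTG, the ETS factor core CCGGAAG and the NRF1 core GCATGCG. Every match is in capitals. In Gm13157 a CCAAT on the opposite strand and a GGGCGG share 2 bases.
Gm13157, chr4:147809789-147809988, − strand: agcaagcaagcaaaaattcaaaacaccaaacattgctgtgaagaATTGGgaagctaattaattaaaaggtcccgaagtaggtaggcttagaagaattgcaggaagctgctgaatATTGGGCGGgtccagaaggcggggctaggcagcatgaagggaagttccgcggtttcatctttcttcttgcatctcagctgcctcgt
Zfp933, chr4:147848419-147848618, − strand: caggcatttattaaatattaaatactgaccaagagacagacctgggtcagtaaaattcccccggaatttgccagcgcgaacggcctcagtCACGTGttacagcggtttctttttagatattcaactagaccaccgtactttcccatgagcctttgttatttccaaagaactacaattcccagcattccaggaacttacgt
Zfp945, chr17:22867135-22867334, − strand: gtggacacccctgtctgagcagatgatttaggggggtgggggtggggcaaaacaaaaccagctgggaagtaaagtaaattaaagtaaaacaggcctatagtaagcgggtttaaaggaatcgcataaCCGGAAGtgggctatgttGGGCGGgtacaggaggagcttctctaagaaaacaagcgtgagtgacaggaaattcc
Zfp777, chr6:48047795-48047994, − strand: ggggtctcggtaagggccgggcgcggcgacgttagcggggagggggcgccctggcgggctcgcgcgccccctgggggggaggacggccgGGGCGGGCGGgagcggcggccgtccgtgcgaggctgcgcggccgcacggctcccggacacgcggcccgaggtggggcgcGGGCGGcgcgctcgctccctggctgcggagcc
Zfp746, chr6:48086594-48086793, − strand: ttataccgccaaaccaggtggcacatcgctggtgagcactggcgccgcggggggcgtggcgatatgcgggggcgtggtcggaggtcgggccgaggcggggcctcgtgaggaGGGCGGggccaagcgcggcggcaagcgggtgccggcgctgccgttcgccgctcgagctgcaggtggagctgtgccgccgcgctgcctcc

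Across the 200 bases before the start, TATAAA, the core of the TATA box, was found in 1 of 63 members (1.6%) and in 10.6% of 27025 RefSeq promoters of the same length. The RefSeq set was taken whether or not a gene was listed in the lung data, while every member was listed. The sets thus differ in more than gene family. CCAAT was found in 34 members (54.0%), against 30.0% of all promoters. CACGTG was found in 11 members (17.5%), against 5.3% of all promoters. Zfp942, Zfp943 and Zfp758 are among the 11 and hold it in the identical 94 bases given above, so their matches are not independent. GGGCGG was found in 27 members (42.9%), again with Zfp942, Zfp943 and Zfp758 included, and in 31.3% of all promoters. All 6 called-lower members with a RefSeq start held GGGCGG, as did 1 of the 8 called-higher members and 18 of the 46 that were not called. The motif is made of G and C alone, and the median GC content of these windows was 60.2%, 52.0% and 53.0%. Singly, the called-lower windows held 84.5% (Zfp777), 75.0% (Zfp746), 62.0% (Zfp943), 58.5% (Zfp942), 48.5% (Zfp945) and 46.5% (Gm13157). GC content was not allowed for in the counts. Zfp942 and Zfp943 hold the same GGGCGG in their shared 94 bases, so 1 match was counted 2 times among the 6. CCAAT was found in 1 of the 6 called-lower, 4 of the 8 called-higher and 27 of the 46 uncalled members, and CACGTG in 2, 2 and 6, where the 2 called-lower members are again Zfp942 and Zfp943 with a single shared match. The median number of CG dinucleotides in the window was 14.5 in the called-lower, 6.5 in the called-higher and 8.0 in the uncalled members, and 5.0 over all promoters. Singly, the called-lower windows held 5 (Zfp945), 6 (Gm13157), 14 (Zfp942), 15 (Zfp943), 28 (Zfp746) and 36 (Zfp777). The median of 14.5 thus rests on Zfp942 and Zfp943, which share the 94 bases. The remaining motifs were rare in all sets: CCGGAAG was found in 4 members and GCATGCG in 2. These counts describe letters in a window and were made with the calls known.

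Zfp942 stood at 11.8, 10.2, 13.6 and 9.10 CPM across wild type. In the knockout libraries it stood at 0.60, 0.68, 0.48 and 0.31 CPM. The groups were far apart, with all knockout values below 1 CPM. Zfp942 fell by 3.52 log2 units (SE 0.164, limma adjusted p = 9.01e-08). In reads, 764 in wild type stood against 30 in the knockout, a ratio of 21.4 after division by library totals (95% exact interval 14.9 to 32, counting error only). Near-identical copies are those whose first 200 nt match at 97% identity or more over 75 nt or more. Zfp944 is such a copy of Zfp942, and the sources used here do not say how reads were divided between copies.

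Zfp943, on the other side of the shared 94 bases, stood at 11.72, 10.76, 11.03 and 11.22 CPM in wild type. The knockout values were 1.99, 2.10, 2.90 and 2.07 CPM. Knockout replicate 3 stood above the other knockout libraries, and the groups did not overlap. Zfp943 fell by 2.09 log2 units (SE 0.120, limma adjusted p = 6.64e-07). Wild type levels of the pair were thus alike (11.2 ± 1.94 and 11.2 ± 0.41 CPM), while the knockout kept 0.52 ± 0.16 CPM of Zfp942 and 2.26 ± 0.43 CPM of Zfp943. Zfp758, whose 5′ end is the near-identical listed copy of Zfp943, stood at 1.14, 1.40, 1.39 and 0.96 CPM in wild type libraries, against 0.73, 1.01, 1.10 and 1.31 CPM in knockout libraries. Its groups overlapped (log2 fold change -0.17, limma adjusted p = 0.50).

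Gm13157 (Zfp984) showed the largest fall of any member. Wild type libraries held 9.09, 18.2, 9.58 and 6.60 CPM, with replicate 2 well above the others. Knockout libraries held 0.20, 0.07, 0.14 and 0.23 CPM, close to the 0.161 to 0.231 CPM that 3 reads are worth in a library. In all, 760 reads in wild type stood against 9 in the knockout, a ratio of 71.0 (95% exact interval 37.2 to 156, counting error only). The gene fell by 4.02 log2 units (SE 0.253, limma adjusted p = 1.44e-06), and the value was -3.75 without wild type replicate 2. The size rests on the pseudocount, since edgeR on the recovered reads gave -6.07 (edgeR adjusted p = 9.91e-06). A near-identical 5′ end lies in Gm20707 (not analysed here). The listed relatives Gm13212 and 2610305D13Rik (Zfp979), with 5′ ends of at least 90% identity, stayed at or below 1.44 CPM in all 8 libraries.

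Zfp933, the listed zinc finger gene next to Gm13157 (a ribosomal protein pseudogene lies between them), changed in the opposite direction. Wild type values were 12.3, 13.4, 12.6 and 12.3 CPM. Knockout values were 18.8, 19.6, 18.4 and 17.9 CPM, all above all wild type values. Zfp933 rose by 0.54 log2 units (SE 0.0733, limma adjusted p = 0.000415), and no copy of its 5′ end reached 97% identity.

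**Figure D2:**
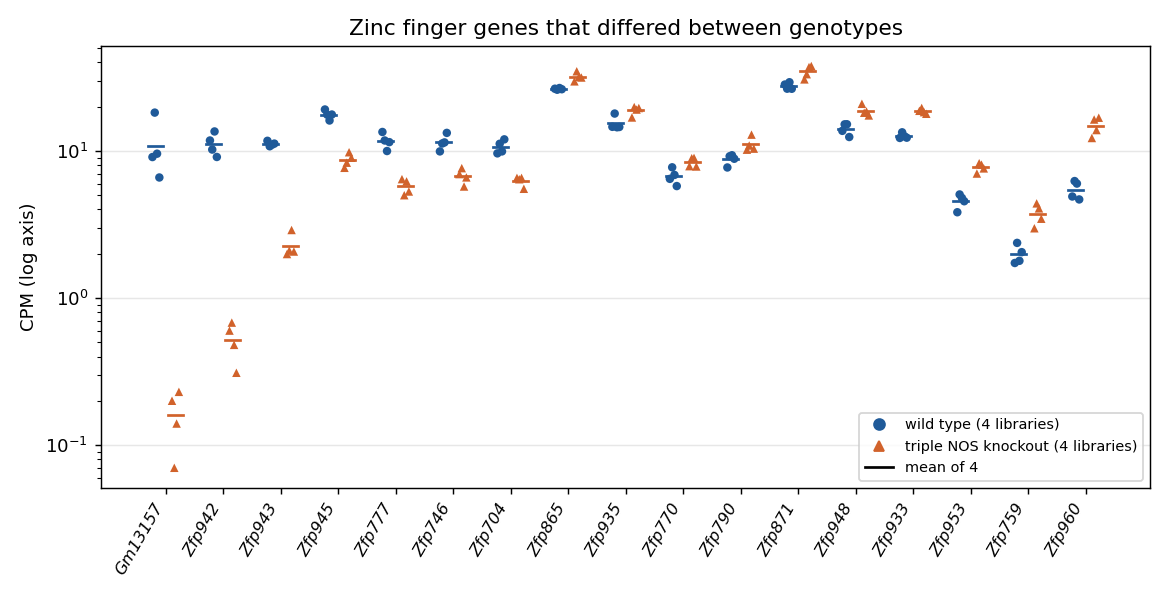
CPM (log axis) of the 17 called members in each library, wild type as circles and knockout as triangles, with a line at the mean of 4. Gm13157, Zfp942 and Zfp943 sit at the left with knockout values between 0.07 and 2.90 CPM, and Zfp960 at the right with knockout values from 12.3 to 16.8 CPM.

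The other 4 members that fell fell by less than 1 log2 unit and have no near-identical 5′ copy. Zfp945 stood at 19.1, 17.6, 16.1 and 17.7 CPM in wild type libraries, against 7.68, 8.32, 9.80 and 8.99 CPM in knockout libraries. It fell by 0.98 log2 units (SE 0.0954, limma adjusted p = 4.31e-05), with no overlap. Zfp777 stood at 13.5, 11.8, 9.99 and 11.5 CPM in wild type libraries, against 6.43, 5.0, 6.21 and 5.30 CPM in knockout libraries. It fell by 0.97 (SE 0.117, limma adjusted p = 0.000204), again without overlap. Zfp746, also called PARIS, is a KRAB zinc finger repressor that the ubiquitin ligase parkin targets and that represses Ppargc1a. It stood at 9.93, 11.2, 11.4 and 13.3 CPM in wild type libraries, against 6.96, 7.64, 5.73 and 6.61 CPM in knockout libraries. It fell by 0.73 (SE 0.115, limma adjusted p = 0.00106). Zfp704 had wild type values of 9.63, 11.19, 9.93 and 11.99 CPM and knockout values of 6.56, 6.42, 6.56 and 5.53 CPM. Zfp704 fell by 0.72 (SE 0.103, limma adjusted p = 0.000588), and every knockout library lay below every wild type library for these 4 genes.

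Zfp960 was the member with the largest rise. It stood at 4.90, 6.24, 6.00 and 4.68 CPM in wild type libraries, against 12.3, 16.4, 13.9 and 16.8 CPM in knockout libraries. The groups did not overlap. It rose by 1.36 log2 units (SE 0.129, limma adjusted p = 3.62e-05), and its reads stood at a ratio of 2.69 (95% exact interval 2.38 to 3.04, counting error only). A near-identical 5′ end lies in Zfp97 (not analysed here). Zfp759 stood at 1.73, 2.37, 1.79 and 2.05 CPM in wild type libraries, against 2.98, 4.40, 4.07 and 3.46 CPM in knockout libraries. It rose by 0.76 (SE 0.149, limma adjusted p = 0.00356). Zfp953 stood at 3.83, 5.06, 4.79 and 4.55 CPM in wild type libraries, against 7.02, 8.25, 8.07 and 7.61 CPM in knockout libraries. It rose by 0.71 (SE 0.110, limma adjusted p = 0.000979), with a near-identical 5′ end in Gm28044 (not analysed here). Neither Zfp759 nor Zfp953 overlapped between genotypes.

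The other 6 called-higher members moved by less than 0.5 on the log2 scale. Zfp948 stood at 13.7, 15.2, 15.2 and 12.4 CPM in wild type libraries, against 20.9, 18.2, 18.6 and 17.4 CPM in knockout libraries. It rose by 0.40 (SE 0.0919, limma adjusted p = 0.00794), without overlap. Zfp871 stood at 28.3, 26.5, 29.3 and 26.5 CPM in wild type libraries, against 30.7, 33.3, 37.2 and 37.8 CPM in knockout libraries. It rose by 0.32 (limma adjusted p = 0.0132), and its groups did not overlap either. Zfp865 stood at 26.5, 26.1, 26.8 and 26.3 CPM in wild type libraries, against 29.7, 34.82, 31.95 and 31.58 CPM in knockout libraries. It rose by 0.27 (limma adjusted p = 0.0121), and it overlaps Zfp784 on the opposite strand, so that reads of the pair cannot be told apart if strand was not used. Its 5′ end also has a near-identical copy in Ccdc106 (not analysed here).

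Calls of the last 3 ended when single libraries were left out. Zfp790 stood at 7.72, 9.20, 9.35 and 8.85 CPM in wild type libraries, against 10.2, 10.9, 12.9 and 10.4 CPM in knockout libraries. It rose by 0.32 (limma adjusted p = 0.0366), and its call was lost with DESeq2 and on omission of wild type replicate 1, 2 or 4, or of knockout replicate 2 or 3 (adjusted p from 0.0197 to 0.105 across alternatives). Zfp770 stood at 6.46, 7.74, 6.87 and 5.77 CPM in wild type libraries, against 7.88, 8.93, 8.97 and 7.84 CPM in knockout libraries. Its rise of 0.31 was at the threshold (limma adjusted p = 0.0499), and of the 8 libraries only wild type replicate 2 could be omitted with the call kept, which was also lost with DESeq2, with no filter and with a filter of 1 CPM in 4 libraries (adjusted p from 0.0225 to 0.126 across alternatives). Zfp935 stood at 14.59, 17.96, 14.49 and 14.55 CPM in wild type libraries, against 16.9, 19.9, 19.1 and 19.6 CPM in knockout libraries. Wild type replicate 2 reached into the knockout range. Zfp935 rose by 0.29 (limma adjusted p = 0.0372), and the call held without wild type replicate 2 or knockout replicate 1 and was lost with DESeq2 and on omission of any other library (adjusted p from 0.0164 to 0.0928 across alternatives). Near-identical 5′ ends of Zfp935 lie in Zfp934 and several gene models (not analysed here).

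In the annotated order of GRCm38, 38 of the 72 symbols fall into 13 groups of neighbours with at most 2 listed genes between them. The largest runs Zfp948, Zfp760, Zfp820, Zfp942, Zfp943, Zfp947, Zfp758, Zfp946 and Zfp945, with the listed zinc finger gene Zfp229 between Zfp760 and Zfp820. Of its 8 tested members 3 fell and 1 rose, and the log2 fold changes ran from -3.52 to 0.40. The 3 that fell were not contiguous: Zfp947, Zfp758 and Zfp946 separate Zfp945 from Zfp943. Zfp946 stood at 5.52 ± 0.84 CPM in wild type libraries and 6.21 ± 0.87 CPM in knockout libraries. Zfp760 stood at 6.74 ± 0.73 and 7.61 ± 0.74 CPM, and Zfp820 at 3.56 ± 0.82 and 4.6 ± 1.22 CPM. None of these passed the test. Zfp947 averaged 0.64 ± 0.22 CPM in wild type libraries and 0.37 ± 0.12 CPM in knockout libraries and was under the limit of 1 CPM for a test. Both directions were called in 2 of the 13 groups, this run and the neighbours Gm13157 and Zfp933, and 7 groups held any call. Singly, 24.6% of tested members and 30.9% of all genes were called, and a group of several genes holds a call more easily. Whether calls gather in groups was not tested.

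**Figure D3:**
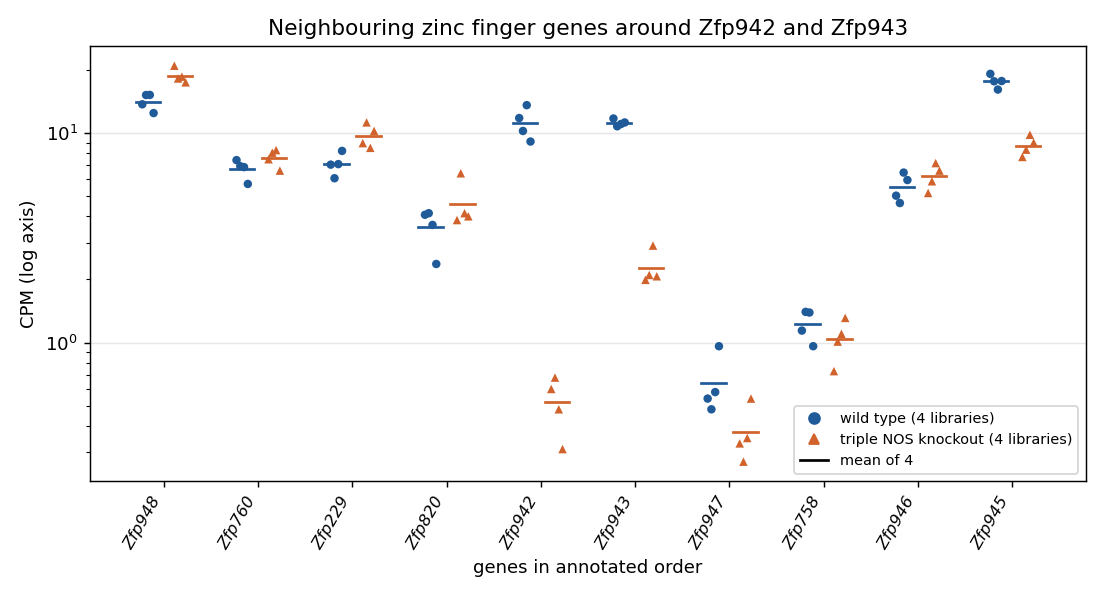
CPM (log axis) in each library of 10 neighbouring zinc finger genes in their annotated order, wild type as circles, knockout as triangles, with a line at the mean of 4. Zfp942, Zfp943 and Zfp945 lie lower in the knockout and Zfp948 and Zfp229 higher, with genes whose genotypes overlap between them.

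A second neighbourhood held Zfp783, Zfp956, Zfp777 and Zfp746 in this order. Zfp777 and Zfp746 fell, as given above. Zfp956 stood at 1.08, 1.94, 1.73 and 1.99 CPM in wild type libraries, against 1.13, 1.01, 1.45 and 0.85 CPM in knockout libraries, where the groups overlapped (log2 fold change -0.43, limma adjusted p = 0.112). Zfp783, which shares sequence positions with Zfp956, stood at 1.08, 0.81, 0.87 and 0.96 CPM in wild type libraries, against 0.66, 0.27, 0.41 and 0.38 CPM in knockout libraries. Its groups did not overlap, but its mean of 0.68 CPM left it untested in the main fit. With no filter Zfp783 was called lower (limma adjusted p = 0.0118), and its 2 identical rows made 2 of the 9 lower calls there. Zfp712, Zfp708 and Zfp759 also lie together. Zfp712 stood at 5.81 ± 0.67 and 5.31 ± 1.33 CPM. Zfp708, a KRAB zinc finger gene known for binding a mouse retroviral element, stood at 1.70 ± 0.39 and 1.28 ± 0.27 CPM. Neither passed the test, while Zfp759 rose.

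Neighbours of the smaller groups mostly did not pass the test. In each of the following pairs of values the first is wild type and the second knockout. Zfp747 stood at 5.32 ± 0.83 and 4.95 ± 0.15 CPM, Zfp764 at 5.46 ± 0.78 and 6.42 ± 0.81 CPM and Zfp768 at 19.6 ± 1.0 and 19.3 ± 1.71 CPM. These 3 share a neighbourhood, and their genotypes overlapped. Zfp866 stood at 11.9 ± 1.56 and 12.9 ± 0.58 CPM, Zfp868 at 6.47 ± 0.81 and 5.43 ± 0.34 CPM and Zfp963 at 5.58 ± 0.67 and 7.10 ± 0.89 CPM, with log2 fold changes of 0.12, -0.23 and 0.32. None of them was called, and the values of Zfp866 and Zfp963 are uncertain because both overlap the listed gene Gm20422. Zfp738 stood at 10.5 ± 0.47 and 10.6 ± 1.25 CPM and its neighbour Zfp748 at 12.8 ± 1.38 and 14.8 ± 1.47 CPM. Zfp952 stood at 2.99 ± 0.39 and 3.10 ± 0.74 CPM and its neighbour Zfp763 at 7.38 ± 1.06 and 7.13 ± 0.56 CPM. Zfp882 stood at 5.01 ± 0.82 and 5.03 ± 0.86 CPM and its neighbour Zfp961 at 7.98 ± 0.61 and 8.43 ± 1.80 CPM. The genotypes of these 6 genes overlapped. Zfp784, next to Zfp865, stood at 4.08 ± 0.52 and 4.90 ± 0.75 CPM. Zfp940, next to Zfp790, stood at 1.23 ± 0.09 and 1.23 ± 0.32 CPM, and Zfp808, next to Zfp935, at 2.37 ± 0.30 and 1.95 ± 0.37 CPM. These 3 were not called beside a called neighbour. Zfp954 stood at 5.79 ± 0.27 and 5.96 ± 0.30 CPM, and its neighbour Zfp773 was untested at 0.54 ± 0.30 and 0.78 ± 0.16 CPM.

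Zfp706, a small protein with a single finger known from embryonic stem cells as a repressor of Klf4, was by far the most abundant member. It stood at 294, 295, 292 and 318 CPM in wild type libraries, against 328, 359.9, 317 and 298 CPM in knockout libraries. The groups overlapped (log2 fold change 0.12, limma adjusted p = 0.199). Without it the members summed to 695 to 794 CPM in wild type libraries and 676 to 761 CPM in knockout libraries, so their total overlapped as well.

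The next most abundant members were Zfp740, Zfp703 and Zfp809. Zfp740 stood at 48.9 ± 2.85 CPM in wild type libraries and 44.5 ± 6.31 CPM in knockout libraries, and it overlaps Csad on the opposite strand. Zfp703, a corepressor of the NET family, stood at 45.8, 53.4, 52.7 and 45.2 CPM in wild type libraries, against 41.6, 46.2, 40.5 and 32.7 CPM in knockout libraries. It missed the threshold (log2 fold change -0.30, limma adjusted p = 0.0521). Another scaling, a count test, the replicate block or leaving out knockout replicate 2 brought Zfp703 under it (adjusted p = 0.00629 to 0.024). Zfp809, a KRAB zinc finger protein that binds the proline tRNA primer site of retroviruses, stood at 45.3, 46.6, 48.4 and 44.2 CPM in wild type libraries, against 41.5, 42.9, 41.2 and 34.2 CPM in knockout libraries. All knockout values of Zfp809 lay below all wild type values, yet it was not called (log2 fold change -0.21, limma adjusted p = 0.0675). Median-ratio, TMM or quantile scaling and the count tests brought Zfp809 under the threshold (adjusted p = 0.0141 to 0.0201). Among the 69 tested members it was the only one without overlap that was not called, out of 17 without overlap (24.6%), of which 9 were above and 8 below. Of all genes 31.1% did not overlap (16.9% above and 14.3% below).

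The following 6 uncalled members have described roles. Zfp711, an X-linked partner of the demethylase PHF8, stood at 2.01 ± 0.29 CPM in wild type libraries and 2.16 ± 0.73 CPM in knockout libraries. Zfp750, a regulator of epidermal differentiation, stood at 1.62 ± 0.45 and 1.48 ± 0.34 CPM, and Zfp828 (Champ1) at 11 ± 1.17 and 11.2 ± 1.07 CPM. Zfp830, known for genome maintenance in early embryos, stood at 15.9 ± 0.86 and 14.4 ± 2.14 CPM. Zfp827, which recruits the NuRD complex to telomeres in cells without telomerase, stood at 5.28 ± 0.47 and 6.53 ± 0.67 CPM and missed the threshold (log2 fold change 0.28, limma adjusted p = 0.075). Zfp932, which acts with its copy Gm15446 on endogenous retroviruses, stood at 10.8 ± 1.15 and 11.6 ± 0.73 CPM, while Gm15446 ranged from 4.19 to 6.42 CPM over the 8 libraries.

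The remaining 17 uncalled members are given with wild type before knockout. Above 12 CPM, Zfp715 stood at 25.2 ± 2.53 and 26.1 ± 2.11 CPM and Zfp771 at 23.2 ± 2.78 and 23.4 ± 1.74 CPM. Zfp938 stood at 19.1 ± 0.87 and 20.7 ± 0.82 CPM and Zfp710 at 15.5 ± 0.41 and 16.04 ± 1.52 CPM. Zfp800 stood at 14.7 ± 0.88 and 15.8 ± 1.78 CPM, Zfp787 at 15.1 ± 1.79 and 14.9 ± 0.89 CPM and Zfp867 at 11.96 ± 0.87 and 14.4 ± 1.53 CPM. Zfp867 had the largest log2 fold change of these, 0.25 (limma adjusted p = 0.0707). From 7 to 9 CPM, Zfp719 stood at 8.96 ± 1.24 and 8.55 ± 1.58 CPM and Zfp788 at 8.35 ± 0.88 and 8.54 ± 0.72 CPM. Zfp821 stood at 8.56 ± 0.79 and 9 ± 0.84 CPM and Zfp839 at 7.82 ± 0.59 and 7.27 ± 1.37 CPM. Zfp949 stood at 7.31 ± 0.57 and 7.59 ± 0.50 CPM and Zfp707 at 7.11 ± 0.70 and 7.34 ± 0.87 CPM. All 6 overlapped between genotypes. Below 4 CPM, Zfp846 stood at 3.27 ± 0.43 and 3.82 ± 0.48 CPM and Zfp879 at 2.34 ± 0.23 and 1.82 ± 0.67 CPM. Zfp959 stood at 1.54 ± 0.18 and 1.49 ± 0.31 CPM and Zfp791 at 1.15 ± 0.18 and 1.51 ± 0.37 CPM. These low members rest on few reads and overlapped as well. Over all 52 uncalled members log2 fold changes ran from -1.73 to 0.33, and 35 were within 0.2 of 0.

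Zfp931 held the value -1.73 and varied more between libraries of a genotype than any other member. It stood at 1.20, 32.32, 10.97 and 1.09 CPM in wild type libraries, against 1.26, 1.15, 1.45 and 1.0 CPM in knockout libraries. Wild type replicates 2 and 3 were high, and replicates 1 and 4 lay within the knockout range. It was not called by limma (adjusted p = 0.123), and was called by edgeR (adjusted p = 0.0282), by DESeq2 (adjusted p = 0.00847) and by limma without wild type replicate 4 (adjusted p = 0.0463). Without wild type replicate 2 the log2 fold change was -0.88 in place of -1.73. The SD within genotypes on the log2 scale was 1.52, against a median of 0.15 over members and 0.14 over all genes.

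The 5′ end of Zfp931 has 30 near-identical copies in GENCODE M21, of which 9 are listed. Gm14410, a listed copy, stood at 10.8, 0.22, 17.09 and 15.96 CPM in wild type libraries, against 0.26, 0.14, 0.69 and 0.54 CPM in knockout libraries. Wild type replicate 2, highest in Zfp931, was the wild type library lowest in Gm14410. Gm14420 (Zfp970) stood at 33.7, 39.1, 31.0 and 28.3 CPM in wild type libraries, against 10.9, 14.7, 13.3 and 8.07 CPM in knockout libraries, without overlap. Gm14418 ranged from 15.6 to 20.8 CPM in wild type libraries and from 6.89 to 12.7 CPM in knockout libraries. These 3 copies were called lower by limma (adjusted p = 0.0194, 0.000115 and 0.00142), and the remaining 6 were not called or not tested. Of these, Gm14305 ranged most widely, from 3.91 to 30.2 CPM over the 8 libraries, and Etohi1 (Zfp971) ranged from 10.6 to 35.5 CPM. Gm14322 ranged from 16.2 to 21.8 CPM and Gm6710 from 11.95 to 15.9 CPM, with Gm14399 and Gm14440 below 4 CPM throughout. Summed over Zfp931 and its 9 listed copies, wild type libraries held 125 to 149 CPM and knockout libraries 89.8 to 106 CPM. The sum did not overlap between genotypes, whereas Zfp931 alone did. The copies of Zfp931 were named after their values were seen. Zfp937 was the next most variable member, with an SD of 0.75. It stood at 4.49, 5.38, 3.0 and 2.24 CPM in wild type libraries, against 1.92, 7.71, 6.76 and 2.07 CPM in knockout libraries. The knockout libraries thus fell apart into replicates 2 and 3 above and replicates 1 and 4 below all wild type values. Zfp442, its near-identical listed copy, ranged from 3.27 to 5.54 CPM and did not show this split. Gm14305 also stood higher in knockout replicates 2 and 3 (15.55 and 30.16 CPM) than in replicates 1 and 4 (3.91 and 4.53 CPM). Etohi1 went the other way, at 15.15 and 14.29 CPM in knockout replicates 2 and 3 against 35.51 and 29.35 CPM in replicates 1 and 4. The division of knockout libraries was thus not particular to Zfp937, and its cause was not tested.

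**Figure D4:**
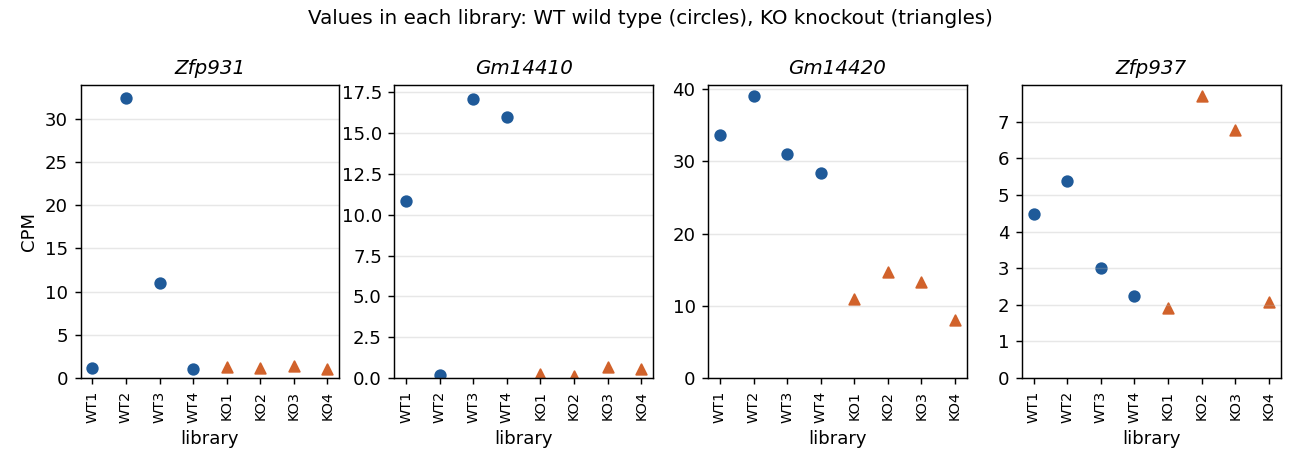
CPM in each of the 8 libraries (linear axes from 0, a scale for each panel) of Zfp931, 2 of its listed near-identical copies and Zfp937. Zfp931 is high in wild type replicates 2 and 3 alone, Gm14410 is near 0 in wild type replicate 2 and in all knockout libraries, and Zfp937 splits the knockout libraries.

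Genes of KRAB zinc finger repression and of heterochromatin changed in both directions. Of 35 tested genes of a list of 40 corepressor and heterochromatin genes, 6 rose and 9 fell (42.9%, against 30.9% of all genes). That is 17.1% higher and 25.7% lower, against 16.7% and 14.2% of all genes. The median log2 fold change was -0.034, against 0.013 over all genes. The list was chosen with earlier results of these data known. Trim28, the corepressor itself, stood at 33.1, 34.6, 36.5 and 34.5 CPM in wild type libraries, against 41.0, 32.9, 33.8 and 31.0 CPM in knockout libraries, and the groups overlapped (limma adjusted p = 0.96). Setdb1, the methyltransferase it recruits, stood at 4.31, 4.36, 5.31 and 5.13 CPM in wild type libraries, against 3.84, 2.98, 3.17 and 3.15 CPM in knockout libraries. Setdb1 fell by 0.48 on the log2 scale (limma adjusted p = 0.013). Trim24, a relative of Trim28, fell from 12.6 ± 0.30 to 6.34 ± 1.32 CPM. Trim33, another relative, fell from 14.5 ± 1.29 to 9.93 ± 1.44 CPM. Mbd3, a subunit of the NuRD complex, fell by 0.62, while Chd4, its ATPase, rose by 0.36. Cbx1, a heterochromatin protein, rose by 0.36, and Zfp57, a KRAB zinc finger gene for imprinted regions, rose from 13.6 ± 1.44 to 21.4 ± 2.18 CPM (limma adjusted p = 0.000993).

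Library totals recovered from the CPM steps were 15598154 to 18593913 reads in wild type and 13014134 to 15096188 reads in the knockout. Nos3 stood at 18.2 to 22.8 CPM in wild type libraries, against 5.56 to 8.83 CPM in knockout libraries, and Nos1 and Nos2 were not analysed here. CAGE reads at the start of Nos3 need not touch the deleted part, so this is a weak check. Markers of the labelled tissue were abundant, with 4 type 2 cell genes summing to 68600 to 84300 CPM in wild type libraries and 37900 to 49800 CPM in knockout libraries. Summed markers did not overlap between genotypes for 4 of 13 cell types: type 2 (1 of 4 genes called higher, 1 lower), type 1 (5880 to 6430 against 6850 to 7530 CPM, also 1 higher and 1 lower), T cells (36.5 to 43.4 against 26 to 34.2 CPM) and macrophages (106 to 117 against 126 to 147 CPM). Of the types whose sums overlapped, ciliated cells had 3 of 4 genes called lower (663 to 710 against 555 to 678 CPM) and B cells 2 of 4 (91.9 to 138 against 33.7 to 122 CPM). Of all genes tested singly, 31.1% did not overlap between genotypes, 16.7% were called higher and 14.2% lower. Whether the marker differences take part in any difference above was not tested. In whole lung, fewer cells of a type and less RNA per cell cannot be told apart.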

How the data were processed

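CAGE libraries of lung RNA were multiplexed and sequenced as single-end reads of 75 nt, per the labels' protocols. Per the submitters' processing notes, HISAT2 2.0.5, BWA 0.7.12-r1039, edgeR and the build mm9 are named, with no role stated. Read assignment to genes or copies, and use of strand, were not stated there or in the labels. The authors deposited CPM per gene, each library summing to 1000000 within rounding. All values were whole multiples of 1 read (100.0% within 0.1 reads), so reads were recovered, and edgeR 4.0.16 and DESeq2 1.42.0 were run on them as alternatives.

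Genes with a mean over the 8 libraries of at least 1 CPM (14036) entered a limma 3.58.1 fit (R 4.3.3) of log2(CPM + 0.5) on genotype alone, using a trended variance and two-sided p-values adjusted by Benjamini-Hochberg over all of them. This limit takes no account of genotype and was the same for all genes. Gm13157 and Zfp942 passed it through wild type, since their knockout means were 0.16 and 0.52 CPM. The script was tested on simulated data. Transcript starts (first 200 nt, GENCODE M21) were compared with blastn 2.17.0; 19 of 72 members had a near-identical copy (97% identity or more across 75 nt or more), and 7 a listed one. The rule gave library values for Gm13157 and for called members (up to 8 in each direction), and named the other called members, the 5 most abundant, listed near-identical copies of members described in full, the 6 corepressor genes with the smallest adjusted p, Trim28, Setdb1 and Nos3. Library values beyond the rule were added after values were seen for Zfp935, Zfp865, Zfp706, Zfp703, Zfp809, Zfp931, Zfp937, Zfp956 and Zfp783. They were also given for Zfp758, a listed copy, and beyond the rule for Gm14410, Gm14420, Trim28 and Setdb1. Knockout library values of Gm14305 and Etohi1 were added after values were seen. The rest are given as means or ranges. Members and lists were chosen with earlier results of these data known. Alternatives were other pseudocounts, filters, scalings, tools, a replicate block and leaving out each library.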

Additional observations from a re-analysis of the deposited data

Results flagged for a closer look

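In 8 of 138 groups of 4 libraries (5.8%; chance flags about 1 in 20) 1 library stood apart from the other 3 by more than Dixon's limit. Zfp943 was highest in knockout replicate 3, at 2.90 CPM against 1.99 to 2.10 CPM in the others. Zfp704, Zfp830 and Zfp800 were lowest in knockout replicate 4, the shallowest library, at 5.53, 11.2 and 13.1 CPM against 6.42 to 6.56, 15.4 to 15.7 and 16.42 to 16.96 CPM. Zfp719 and Zfp935 were highest in wild type replicate 2, at 10.81 and 17.96 CPM against 8.14 to 8.49 and 14.5 to 14.6 CPM. Zfp706 was highest in wild type replicate 4, at 318 CPM against 292 to 295 CPM, and Zfp820 in knockout replicate 2, at 6.42 CPM against 3.84 to 4.14 CPM. No cause was tested.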

How the results depend on the processing

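Over all scalings, filters, tools and omissions tried, 7 to 13 members were called higher and 7 to 10 lower, and leaving out each library in turn gave 7 to 10 and 7 to 8. Over all genes the same alternatives gave 1725 to 2396 higher and 1527 to 2357 lower. Omissions alone gave 1725 to 2396 and 1527 to 2079 there. Gm13157, Zfp942, Zfp943, Zfp945, Zfp777, Zfp746 and Zfp704 kept direction and call under every alternative run. So did Zfp960, Zfp953, Zfp933, Zfp948, Zfp871 and Zfp865. Zfp759 also kept both wherever it was tested, but the filter of a mean of at least 3 CPM dropped it (mean 2.86 CPM). With the 19 of 69 tested members that have a near-identical 5′ copy removed, 6 were called higher and 4 lower. Fewer genes were counted there, and this alternative was added after seeing the data. Adding the 9 genes that GENCODE alone names in this range, also added later, gave 10 and 8. Other numbered Zfp genes called higher ranged from 25 to 40 when 1 library was left out, with 25 without wild type replicate 2 and 25 without knockout replicate 2. Trim28, uncalled with a log2 fold change of -0.01, ran from -0.09 to 0.04 when 1 library was omitted, and turned to 0.02 (wild type replicate 3) and to 0.01, 0.00 and 0.04 (knockout replicates 2, 3 and 4). For Trim28 and these counts the cause was not tested. Same-numbered libraries did not deviate together (correlations 0.019, 0.044, 0.027 and 0.067), so the numbers were not taken as pairs, and no library of wild type replicate 1 or 2 correlated best with its own number. With the replicate block, 10 members were called higher and 8 lower, and over all genes 2374 and 1988. At 3 reads per library, levels below 0.161 to 0.231 CPM cannot be told from 0.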
